A study of Mus musculus with 18 samples.

Results

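The genes described here are 51 listed genes of the cell cycle and DNA replication, 28 that act in mitosis and 23 that act in S phase or in the entry into it. They were taken by gene symbol from a list of known cell cycle genes that was drawn up with earlier results of these data known, so their counts are a description and not independent evidence. All 51 were found among the 16245 genes measured in mouse liver by RNA sequencing. The 18 livers came from wild-type male mice, C57BL/6 in the labels and C57BL/6J in the study's methods, that were kept on a diet that causes non-alcoholic steatohepatitis (NASH, a fatty and inflamed liver) at about 29 °C from 8 weeks of age. Of these mice, 6 were given vehicle, 6 were injected subcutaneously once a day with recombinant GDF15, a cytokine hormone that rises in blood during stress and curbs eating, and 6 were pair-fed, receiving on each day what the matching GDF15 mice had eaten on the previous day. The labels list GDF15 doses of 0.3, 1 and 5 nmol/kg without tying a dose to a mouse. For the liver sequencing the study names a single dose, given as 1 nmol/kg in its text and as 5 nmol/kg in a figure legend. Each sample was a piece of whole liver from 1 mouse, so every value is an average over hepatocytes and the other cells of the organ.

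A dividing cell copies its DNA in S phase and separates the copies in mitosis, and each step has its own set of genes. Replication begins when the MCM helicase is loaded on origins by Cdc6 and Cdt1 and is switched on together with Cdc45 and the GINS complex. PCNA, the sliding clamp, then holds the polymerases on DNA, and ribonucleotide reductase, thymidylate synthase and thymidine kinase supply nucleotides. Genes of this phase are classic targets of E2F factors. Mitotic genes are held off in resting and G1 cells by the DREAM complex and switched on later, in G2, by MuvB together with B-Myb and FOXM1, through promoter elements that include CHR and CCAAT boxes. In an adult liver most hepatocytes rest outside the cycle and many are polyploid, whereas immune, stellate and biliary cells proliferate when the organ is injured.

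The 18 libraries held between 16508864 and 35301853 estimated counts. A level is given below as a normalised count, which is the estimated count of a gene divided by the DESeq2 size factor of its library. At this depth mitotic genes were sparse, their vehicle medians running from 9.23 to 155 normalised counts with a median over the 28 genes of 40.0. A gene was called different at a Benjamini-Hochberg adjusted p under 0.05 and an absolute log2 fold change above 1, and calls at the adjusted p alone are given beside these. The tissue label was borne out by the hepatocyte markers, Alb having at least 960060 normalised counts in every liver.

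GDF15 livers held fewer transcripts of mitotic genes than vehicle livers. Of the 28 mitotic genes, 27 were called lower in GDF15 than in vehicle livers and none higher, whereas 4.85% of all genes were called lower and 0.813% higher. At the adjusted p alone all 28 were lower, against 15.8% of all genes. The median log2 fold change over the 28 genes was -1.84, a fall of 3.59-fold, whereas the median over all genes was -0.0020. All 6 GDF15 livers lay below all 6 vehicle livers for 25 of the 28 genes, a separation that 6.32% of all genes showed. In whole liver, fewer dividing cells and less of these RNAs per cell cannot be told apart.

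**Figure D1:**
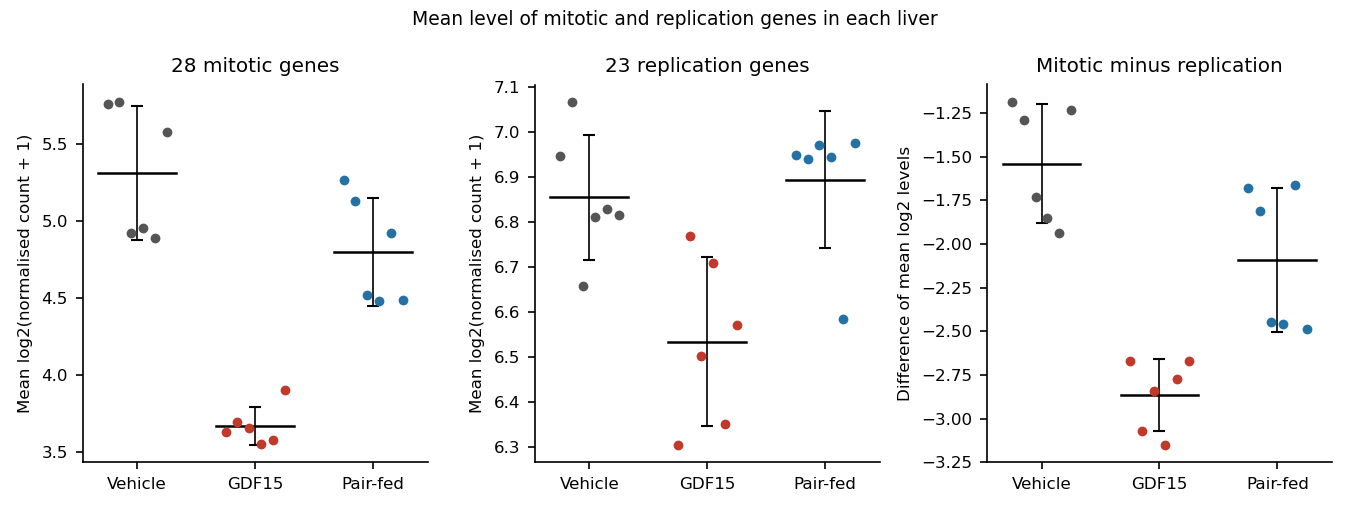
Mean log2(normalised count + 1) of the 28 mitotic genes (left) and the 23 replication genes (middle), and the difference of both means (right), in each of 18 livers; points are livers in the order of their replicate numbers, horizontal lines are group means and bars are SD over 6 livers. The mitotic means of GDF15 livers, 3.56 to 3.90, lie below every other liver, whereas the replication means overlap between groups.

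The cyclins and kinases that start mitosis formed a group of 9 genes, all called lower. Ccna2 (chr3:36564865-36572150, minus strand) encodes cyclin A2, a partner of the mitotic kinase. It had normalised counts of 45.0 to 113 (median 77.8) in vehicle livers, 16.9 to 29.7 (median 19.8) in GDF15 livers and 42.0 to 58.2 (median 48.3) in pair-fed livers. No GDF15 liver reached the lowest liver of either other group. Its log2 fold change against vehicle was -1.88 ± 0.23 (SE), with an adjusted p of 1.02e-13 (DESeq2).

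Ccnb2 (chr9:70407692-70421547, minus strand), a B-type cyclin, had 44.1 to 96.6 (median 65.6) normalised counts in vehicle, 8.99 to 23.5 (median 13.9) in GDF15 and 30.5 to 44.2 (median 36.4) in pair-fed livers. The GDF15 livers were again apart from the other 12, and the highest pair-fed liver only just exceeded the lowest vehicle liver. The log2 fold change of Ccnb2 was -2.15 ± 0.27 (SE) against vehicle (DESeq2 adjusted p = 1.32e-13). Ccnb1, the other B-type cyclin of the list, had 24.6 to 73.3 (median 40.0) in vehicle, 11.7 to 19.6 (median 14.2) in GDF15 and 17.0 to 50.6 (median 33.5) in pair-fed livers. The lowest pair-fed liver fell within the GDF15 range for Ccnb1.

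Cdk1, the kinase that these cyclins activate, had 29.1 to 79.5 (median 56.3) normalised counts in vehicle, 15.41 to 26.0 (median 22.02) in GDF15 and 28.5 to 59.3 (median 32.9) in pair-fed livers. Its log2 fold change against vehicle was -1.39 ± 0.27 (SE). Foxm1, the transcription factor of G2 and mitotic genes, fell with them (-1.85 ± 0.31), as did the spindle pole kinases Plk1 (-2.09 ± 0.33) and Aurka (-1.17 ± 0.25). Pbk and Melk encode kinases that are abundant in dividing cells. Melk had the largest estimated fall of the 51 genes, -2.85 ± 0.54, but rested on a median of 2 counts per GDF15 liver, and 1 GDF15 liver had none.

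The kinetochore and spindle checkpoint group held 7 genes, all called lower against vehicle. Bub1, Bub1b and Ttk encode checkpoint kinases that hold back anaphase until every chromosome is attached, and their log2 fold changes were -1.95, -1.44 and -2.14. Ndc80 (-2.11 ± 0.42) and Nuf2 (-1.89 ± 0.31) encode subunits of the complex that grips spindle microtubules. Cenpe (-1.12 ± 0.33), a kinetochore motor, and Cenpf (-1.37 ± 0.38), a kinetochore protein, had GDF15 livers that overlapped the vehicle range. For Cenpf the overlap came from 1 GDF15 liver at 38.6 normalised counts, where the next GDF15 liver had 12.3.

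Among the 8 genes of the spindle, its midzone and the chromosome passenger complex, 7 were called lower. Nusap1 and Tpx2, which build spindle microtubules, changed by -2.29 ± 0.34 and -1.93 ± 0.30 (log2, SE). Kif20a, Kif23 and Prc1 act at the midzone, where the cell is cut apart, and changed by -1.77, -1.68 and -1.80. Aurkb, the kinase of the passenger complex, changed by -2.21 ± 0.36. Its partner Birc5 (survivin) was the exception by size, at -0.55 ± 0.16 (DESeq2 adjusted p = 0.00395).

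Mki67 (chr7:135689784-135716361, minus strand) encodes Ki-67, the protein stained to count proliferating cells. It had 91.1 to 247 (median 155) normalised counts in vehicle, 29.95 to 45.0 (median 38.8) in GDF15 and 80.3 to 170 (median 108) in pair-fed livers. Every GDF15 liver was under every other liver, and its log2 fold change was -2.08 ± 0.26 (SE) against vehicle, with an adjusted p of 4.43e-13 (DESeq2). Cdc20, which activates the ligase that starts anaphase, had 47.7 to 111 (median 88.7) in vehicle, 16.4 to 37.4 (median 23.2) in GDF15 and 33.0 to 70.8 (median 53.3) in pair-fed livers. Top2a, the topoisomerase that disentangles sister chromosomes, had 61.7 to 119 (median 94.2) in vehicle, 19.4 to 43.4 (median 38.7) in GDF15 and 46.5 to 119 (median 61.8) in pair-fed livers. Both fell against vehicle, Cdc20 by 1.84 ± 0.27 and Top2a by 1.35 ± 0.25 on the log2 scale (SE).

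**Figure D2:**
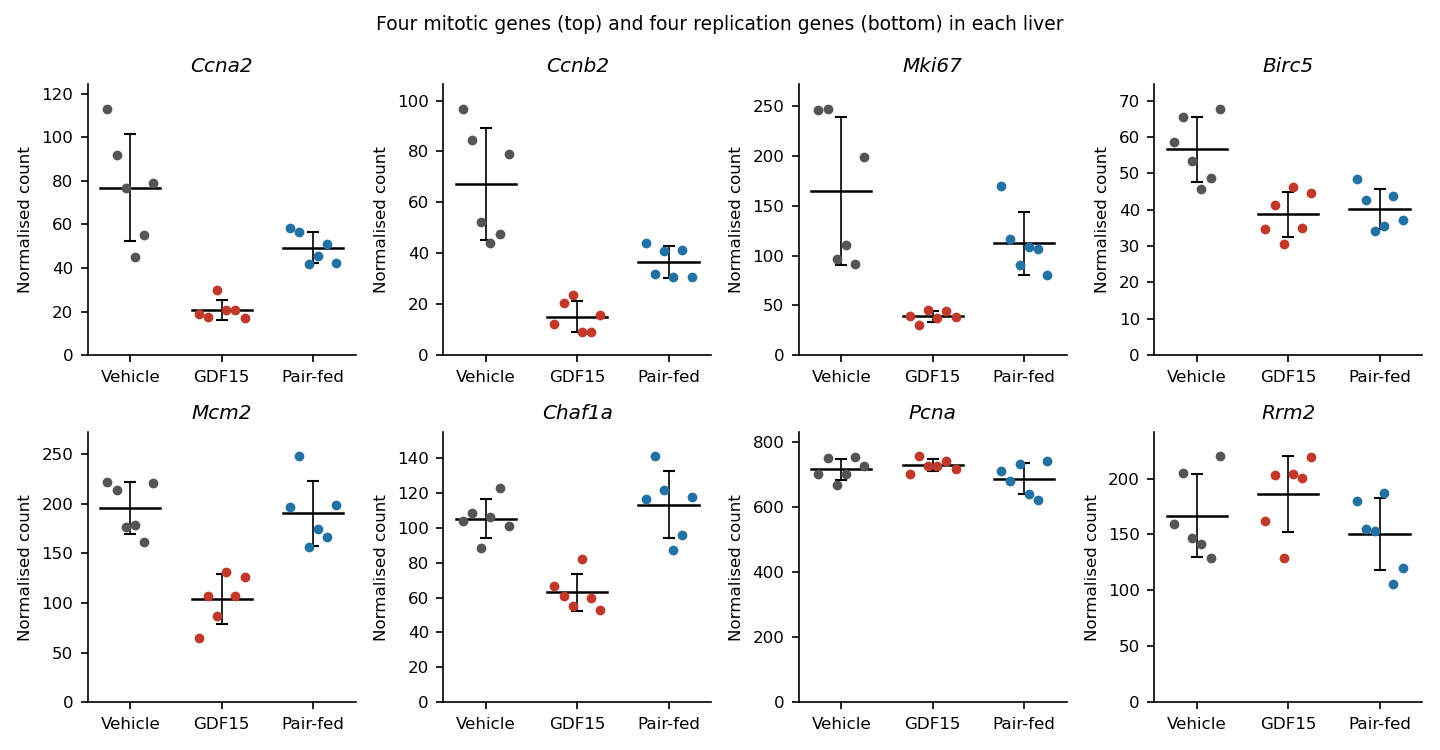
Normalised counts of 4 mitotic genes (top row) and 4 replication genes (bottom row) in each of 18 livers; points are livers, horizontal lines are group means, bars are SD over 6 livers and every axis starts at 0. Ccna2, Ccnb2 and Mki67 have all GDF15 livers below the 12 others, Birc5 has GDF15 livers level with pair-fed livers, and Pcna and Rrm2 overlap in all groups.

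The vehicle livers themselves differed in their mitotic genes. Vehicle livers 1, 2 and 6 had mean mitotic levels of 5.76, 5.78 and 5.58 on the log2(normalised count + 1) scale, whereas livers 3, 4 and 5 had 4.93, 4.96 and 4.89. For 25 of the 28 mitotic genes the top 3 vehicle livers were livers 1, 2 and 6. The 6 GDF15 livers lay closer together, from 3.56 to 3.90, all below the lowest vehicle liver at 4.89. Pair-fed livers ranged from 4.49 to 5.27, and livers 1, 2 and 5 were the highest of them.

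Against pair-fed mice, which ate the same amount, mitotic genes were also lower in GDF15 mice. Of the 28 genes, 19 were called lower and none higher, where 2.43% of all genes were called lower and 0.554% higher. At the adjusted p alone 26 were lower, against 12.2% of all genes, and the median log2 fold change was -1.25. The exceptions were Cenpf (-0.71 ± 0.38) and Birc5 (-0.06 ± 0.17). All 6 GDF15 livers lay below all 6 pair-fed livers for 17 genes, a separation shown by 4.69% of all genes. None of the 51 genes had all 6 GDF15 livers above all 6 pair-fed livers, where 4.31% of all genes did. Mki67 changed by -1.52 ± 0.27, Ccna2 by -1.24 ± 0.24 and Ccnb2 by -1.26 ± 0.27 (log2, SE) against pair-fed livers, with DESeq2 adjusted p-values of 4.15e-07, 4.36e-06 and 6.56e-05. The count depended on which livers were compared: replicates 4 to 6 of each group alone gave 6 mitotic genes called lower against pair-fed livers with a median of -0.93, and 22 against vehicle livers with a median of -1.49. Over all 16245 genes those replicates gave 273 and 516 called lower, where the fit of all 18 livers gave 394 and 788. Without pair-fed replicate 1 the calls of Cdk1, Bub1 and Prc1 against pair-fed livers were lost at the adjusted p, with log2 fold changes of -0.63, -1.29 and -0.75.

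Pair-feeding by itself gave no called gene, mitotic or other, against vehicle at the adjusted p in the fit of all 18 livers (DESeq2, 0% of all genes, edgeR 0 genes). A DESeq2 fit of only the 12 livers compared gave 1 gene lower and 2 higher at the adjusted p, and one with the 3 largest pair-fed libraries gave 22 lower and 9 higher. At an unadjusted p under 0.05 there were 718 genes by DESeq2 and 620 by edgeR. All 28 mitotic genes had estimates below 0 in this comparison, where 51.5% of all genes did, and the median log2 fold change was -0.54. At an unadjusted p under 0.05, 16 of the 28 were lower, against 2.65% of all genes. Ccnb2 had the smallest unadjusted p of them, 0.000146, with a log2 fold change of -0.89 ± 0.23 (SE) and an adjusted p of 0.394 (DESeq2). No mitotic gene had all pair-fed livers below all vehicle livers, a separation that only 0.0985% of all genes showed. The pair-fed median lay between the GDF15 and vehicle medians for 27 of the 28 mitotic genes, and for 47.9% of all genes. These 3 comparisons share their groups, so their values are not independent.

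Replication genes changed less and in both directions. Of the 23, 3 were called lower in GDF15 than in vehicle livers (Cdc6, Gins2 and Uhrf1) and 1 higher (Tk1). Of all genes, 4.85% were called lower and 0.813% higher. At the adjusted p alone 10 were lower and 2 higher, where 15.8% and 14.3% of all genes were, and 11 did not pass. The median log2 fold change of the 23 genes was -0.31. Against pair-fed livers 2 were called lower (Cdc6 and Uhrf1) and 1 higher (Tk1), where 2.43% and 0.554% of all genes were. At the adjusted p alone 12 were lower and 1 higher, where 12.2% and 11.8% of all genes were. The median against pair-fed livers was -0.46. All 6 GDF15 livers lay below all 6 vehicle livers for 4 replication genes, Mcm2, Mcm4, Chaf1a and E2f1, and above them for 1, Tk1. Of all genes, 6.32% lay below and 5.2% above. Replicates 1 to 3 alone gave 5 replication genes called lower in each comparison, whereas replicates 4 to 6 alone gave none (DESeq2). Over all 16245 genes, replicates 1 to 3 gave 617 called lower against vehicle and 420 against pair-fed livers. Replicates 4 to 6 gave 516 and 273.

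**Figure D3:**
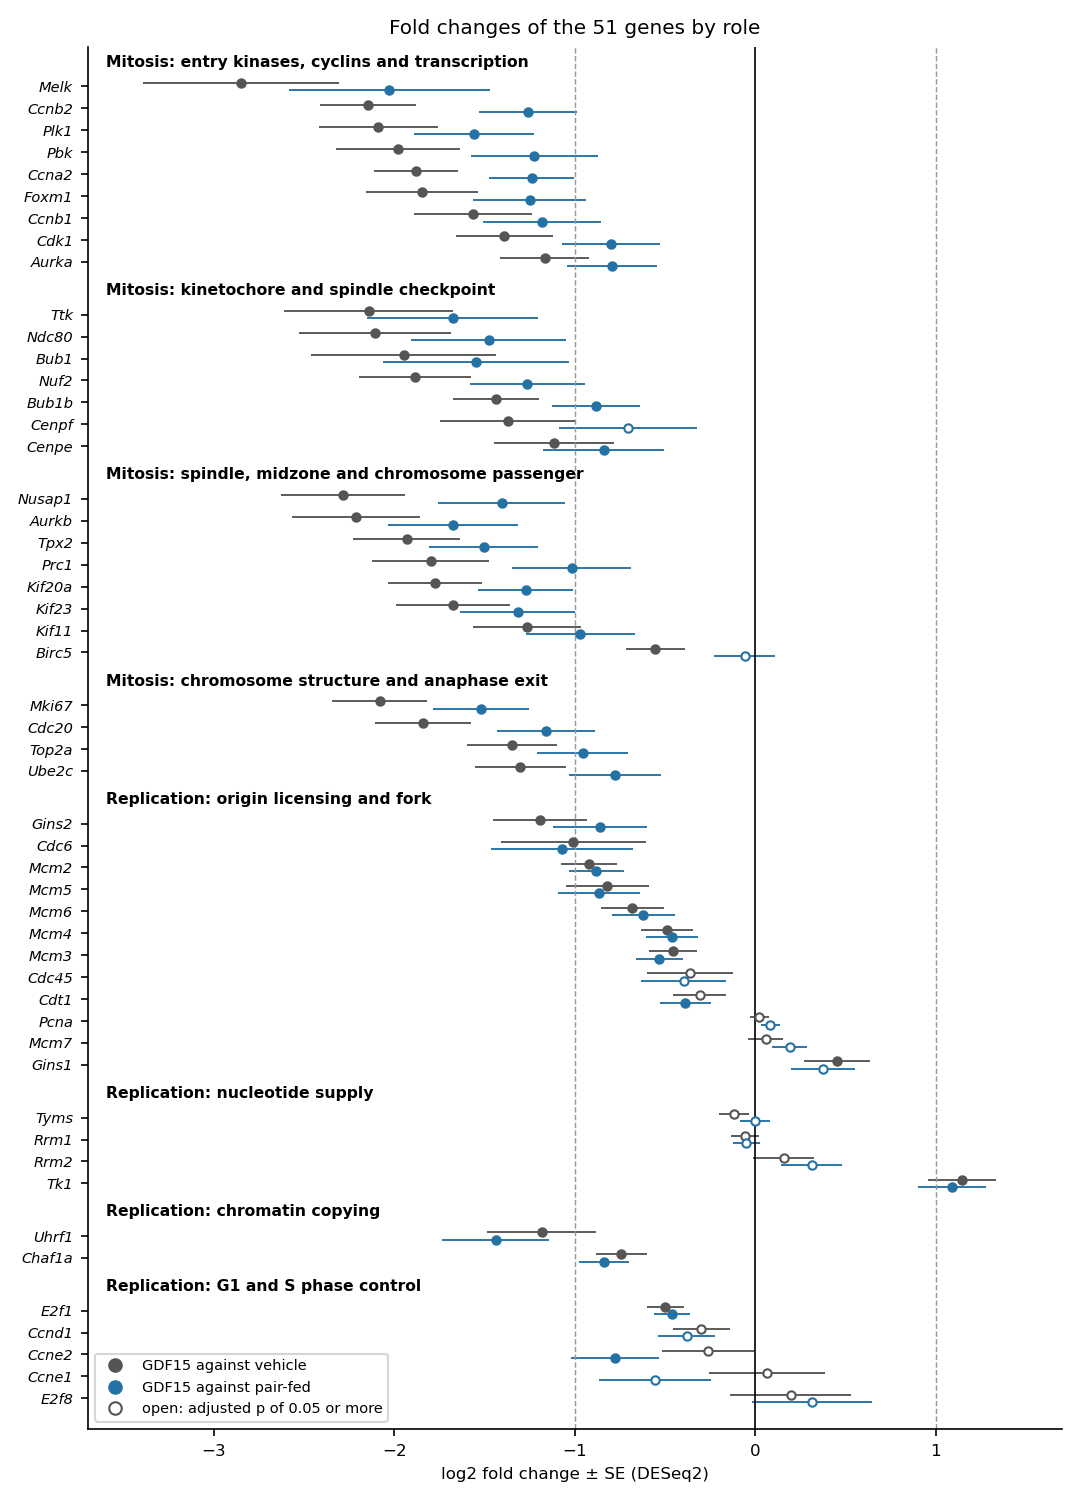
DESeq2 log2 fold change of each of the 51 genes, grouped by role, for GDF15 against vehicle (grey) and against pair-fed livers (blue); bars are SE, open points have an adjusted p of 0.05 or more and dashed lines mark 1 and -1. Mitotic genes lie left of 0 in both comparisons, from -0.55 to -2.85 against vehicle, and replication genes lie on both sides, from -1.19 to 1.15.

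Most subunits of the replicative helicase fell. Mcm2 (chr6:88883474-88898780, minus strand), a subunit of the MCM helicase, had 161 to 221 (median 196) normalised counts in vehicle, 65.0 to 131 (median 107) in GDF15 and 157 to 247 (median 185.5) in pair-fed livers. All GDF15 livers were below the 12 others, and the log2 fold change of Mcm2 was -0.92 ± 0.15 (SE) against vehicle (DESeq2 adjusted p = 8.04e-08). Mcm5 had 86.6 to 136 (median 95.9) in vehicle, 36.4 to 94.0 (median 51.6) in GDF15 and 61.8 to 139 (median 119) in pair-fed livers, so that the GDF15 range overlapped both others. Against vehicle the log2 fold change was -0.46 for Mcm3, -0.49 for Mcm4, -0.82 for Mcm5 and -0.68 for Mcm6, and all passed the adjusted p in both comparisons. Mcm7, the remaining subunit, had 307 to 375 (median 344) in vehicle, 294 to 407 (median 361) in GDF15 and 262 to 358 (median 307) in pair-fed livers. Its log2 fold change against vehicle was 0.06, with a 95% interval from -0.13 to 0.25, which does not reach the estimate of any other MCM subunit.

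Cdc6, which loads the helicase, was the sparsest replication gene, with medians of 13.1, 5.62 and 11.51 normalised counts in vehicle, GDF15 and pair-fed livers and a log2 fold change of -1.01 ± 0.40 (SE) against vehicle (DESeq2 adjusted p = 0.0388). That call was lost on leaving out any of 8 single libraries, with log2 fold changes from -1.04 to -0.87. Cdt1, the other loader, had 66.3 to 122 (median 101) in vehicle, 65.0 to 103 (median 71.3) in GDF15 and 95.4 to 116 (median 104) in pair-fed livers. Cdt1 passed the adjusted p against pair-fed livers (-0.39 ± 0.14) and not against vehicle (-0.31 ± 0.15). The call against pair-fed livers was lost without any of 6 single libraries (-0.36 to -0.34) and one against vehicle was gained without any of 3 (-0.40 to -0.38), so both results lie near the threshold. No test compared one with the other. The 2 GINS subunits listed went apart. Gins2 fell (-1.19 ± 0.26 against vehicle), whereas Gins1 had 37.9 to 80.5 (median 54.8) normalised counts in vehicle, 66.2 to 85.6 (median 78.1) in GDF15 and 42.2 to 75.0 (median 61.3) in pair-fed livers. The rise of Gins1 against vehicle was 0.45 ± 0.18 on the log2 scale (DESeq2 adjusted p = 0.0393) and no longer passed in edgeR or on leaving out any of 8 single libraries.

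Cdc45, which completes the active helicase, had 23.3 to 33.7 (median 30.5) in vehicle, 15.59 to 41.1 (median 19.9) in GDF15 and 17.0 to 38.4 (median 31.4) in pair-fed livers. Without GDF15 replicate 4, its highest liver, Cdc45 passed the adjusted p against vehicle with a log2 fold change of -0.58. Pcna had 669 to 753 (median 714) normalised counts in vehicle, 703 to 756 (median 726) in GDF15 and 622 to 740.5 (median 696) in pair-fed livers. The 3 groups overlapped almost fully for Pcna, and its log2 fold change of 0.02 against vehicle had a 95% interval from -0.08 to 0.13.

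Of the 4 nucleotide supply genes, Tk1 passed the test and Rrm1, Rrm2 and Tyms did not. Rrm1, the large subunit of ribonucleotide reductase, had 242 to 300 (median 267) in vehicle, 248.9 to 274 (median 257) in GDF15 and 238 to 303.5 (median 266) in pair-fed livers. Rrm2, the small subunit that accumulates in S phase, had 129 to 220 (median 153) in vehicle, 129 to 219 (median 202) in GDF15 and 106 to 187 (median 154) in pair-fed livers. The 95% interval of the log2 fold change against vehicle was -0.21 to 0.10 for Rrm1 and -0.17 to 0.49 for Rrm2. Tyms, which makes thymidylate, had 190 to 221 (median 197) in vehicle, 168 to 213 (median 182) in GDF15 and 173 to 205 (median 186) in pair-fed livers, and its interval against vehicle was -0.28 to 0.05. For these 3 genes the intervals leave out a change as large as the median of the mitotic genes.

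Genes that copy chromatin behind the fork fell. Chaf1a, the large subunit of the histone chaperone CAF-1, had 88.4 to 123 (median 105) in vehicle, 53.0 to 82.2 (median 60.3) in GDF15 and 87.4 to 141 (median 117) in pair-fed livers, with all GDF15 livers below the 12 others. The log2 fold change of Chaf1a was -0.74 ± 0.14 against vehicle and -0.84 ± 0.14 (SE) against pair-fed livers, with DESeq2 adjusted p-values of 2.46e-06 and 6.84e-08. Uhrf1, which keeps DNA methylation through replication, fell by 1.18 ± 0.30 and 1.44 ± 0.30 on the log2 scale (SE) in the same comparisons. Exons of Chaf1a share 4648 bases with those of Ubxn6 on the opposite strand, so the level of Chaf1a is uncertain.

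Regulators of the entry into S phase were mixed. E2f1, an activating E2F factor, had 127 to 171 (median 157) normalised counts in vehicle, 101 to 117 (median 110) in GDF15 and 131 to 168 (median 153.5) in pair-fed livers. It fell by 0.50 ± 0.10 (log2, SE) against vehicle (DESeq2 adjusted p = 1.93e-05), and its GDF15 livers were below the 12 others. E2f8, a repressor of the E2F family, had 73.3 to 220 (median 104) in vehicle, 79.6 to 339 (median 111) in GDF15 and 81.9 to 204 (median 109) in pair-fed livers, a spread too wide to bound its change beyond -0.46 to 0.85 (95% interval, log2, against vehicle). Ccnd1, cyclin D1, was the most abundant of the 51 genes, with 1650 to 2290 (median 2073) in vehicle, 1275 to 2176 (median 1538) in GDF15 and 1496 to 2724 (median 2087) in pair-fed livers. Its log2 fold changes of -0.30 ± 0.16 and -0.38 ± 0.16 (SE) did not pass (adjusted p = 0.136 and 0.0577, DESeq2). Ccnd1 passed the adjusted p against vehicle without GDF15 replicate 2 (-0.40), and against pair-fed livers without any of 5 single libraries, namely GDF15 replicate 2 or 3 or pair-fed replicate 2, 5 or 6 (-0.48 to -0.43).

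The E-type cyclins, which drive the G1 to S transition, had their highest medians in pair-fed livers. Ccne1 had 11.6 to 36.5 (median 26.2) in vehicle, 10.4 to 37.9 (median 27.7) in GDF15 and 24.1 to 52.8 (median 37.2) in pair-fed livers. Ccne2 had 18.01 to 27.1 (median 20.5) in vehicle, 11.7 to 24.1 (median 18.7) in GDF15 and 16.6 to 37.5 (median 32.2) in pair-fed livers. Of the pair, Ccne2 in GDF15 against pair-fed livers passed the adjusted p (-0.78 ± 0.24 log2, DESeq2 adjusted p = 0.00793). Against vehicle the pair-fed livers had log2 fold changes of 0.62 ± 0.31 for Ccne1 and 0.52 ± 0.23 for Ccne2, with unadjusted p-values of 0.0456 and 0.0259 and adjusted p-values of 0.998 (DESeq2).

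**Figure D4:**
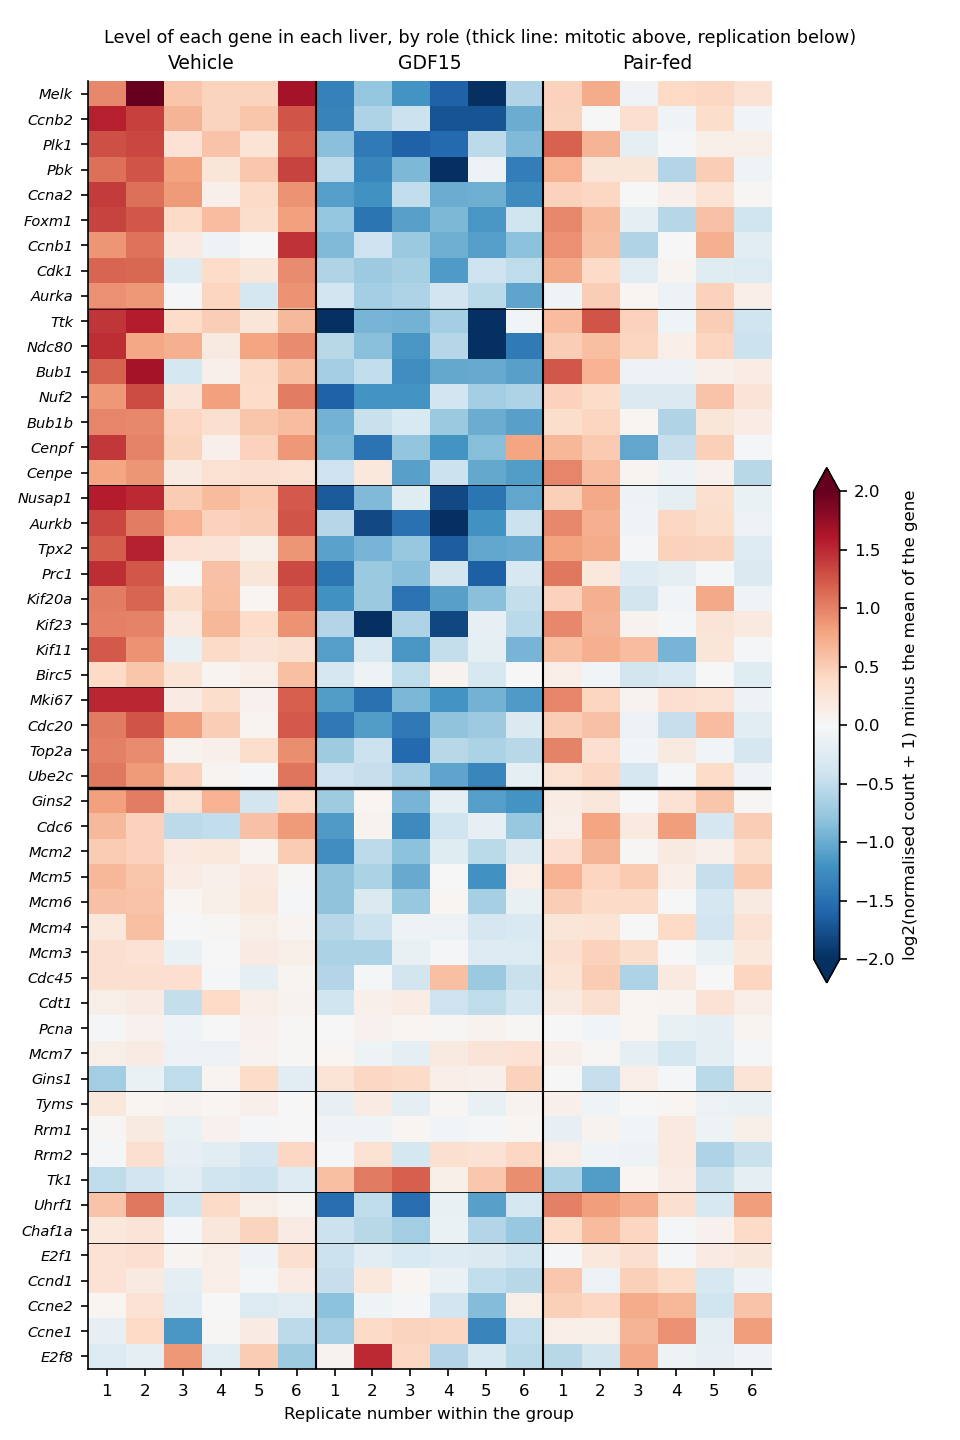
Level of each of the 51 genes in each of 18 livers, as log2(normalised count + 1) minus the mean of that gene over all livers; red is higher and blue lower, thin lines part the roles and the thick line parts mitotic genes (above) from replication genes (below). The mitotic block is mostly blue across the 6 GDF15 livers, with exceptions such as Cenpf in GDF15 liver 6. It is reddest in vehicle livers 1, 2 and 6, whereas Pcna, Tyms and Rrm1 are near white throughout.

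Mitotic and replication levels were then compared within each liver. The mean mitotic level minus the mean replication level, on the log2(normalised count + 1) scale, ran from -1.94 to -1.18 (median -1.51) in vehicle livers, from -3.15 to -2.67 (median -2.81) in GDF15 livers and from -2.49 to -1.66 (median -2.13) in pair-fed livers. The GDF15 livers were apart from the 12 others, and pair-fed and vehicle livers overlapped. The mean replication level alone ran from 6.66 to 7.07 in vehicle, 6.30 to 6.77 in GDF15 and 6.58 to 6.98 in pair-fed livers, so that the groups overlapped. As these means are taken over chosen genes, no test is given for them.

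Levels were also compared per length. Per kilobase of median annotated transcript length, the highest levels among the 51 genes in vehicle livers were those of Ccnd1, Pcna and Mcm7, at 554, 470 and 433 normalised counts per kilobase. The highest mitotic gene, Cdc20, was at rank 13 with 49.5, and the median of the mitotic genes was 18.4. The 11 replication genes that did not pass against vehicle had a median of 66.7 normalised counts per kilobase, and the 10 that fell had 41.5, with ranges of 6.81 to 554 and 3.66 to 213 that overlapped.

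Promoters are shown for the mitotic and replication genes with the lowest adjusted p against vehicle that have a RefSeq entry, since mitotic members moved together and their promoters can be compared with those of replication members. Each runs from 200 bases before to 20 bases after the start of transcription on GRCm38.p6, all on the minus strand, and capitals mark motifs on either strand. The motifs are the CHR, read as TTTGAA and also as TTCGAA, the CCAAT box, and the E2F core, read as TTCCCGC and, with its middle letters changed, as TTGGCGC and then also as TTCGCGC and finally as TTGCCGC.
Ccnb2 promoter, chr9:70421535-70421754: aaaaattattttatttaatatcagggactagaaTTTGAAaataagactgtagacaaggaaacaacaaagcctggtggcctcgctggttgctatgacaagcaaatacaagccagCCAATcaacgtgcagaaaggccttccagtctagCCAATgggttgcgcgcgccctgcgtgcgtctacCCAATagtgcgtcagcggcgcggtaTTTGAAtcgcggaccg
Mki67 promoter, chr7:135716360-135716579: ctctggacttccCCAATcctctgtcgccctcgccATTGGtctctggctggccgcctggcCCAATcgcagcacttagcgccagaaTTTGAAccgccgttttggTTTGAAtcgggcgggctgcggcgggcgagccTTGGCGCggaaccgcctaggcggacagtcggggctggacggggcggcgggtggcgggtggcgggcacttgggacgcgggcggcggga
Mcm2 promoter, chr6:88898761-88898980: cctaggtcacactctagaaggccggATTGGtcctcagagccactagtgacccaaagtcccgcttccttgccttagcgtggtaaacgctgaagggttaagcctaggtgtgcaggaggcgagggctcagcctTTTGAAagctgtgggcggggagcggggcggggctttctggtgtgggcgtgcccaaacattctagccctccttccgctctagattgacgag
Tk1 promoter, chr11:117825995-117826214: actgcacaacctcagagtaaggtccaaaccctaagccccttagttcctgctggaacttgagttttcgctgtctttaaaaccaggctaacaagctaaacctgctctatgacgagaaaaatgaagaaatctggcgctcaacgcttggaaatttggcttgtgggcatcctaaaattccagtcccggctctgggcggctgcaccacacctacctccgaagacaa
The Ccnb2 promoter held 3 CCAAT boxes and 2 CHR matches, and the Mki67 promoter held 3 CCAAT boxes, 2 CHR matches and 1 E2F core. Mcm2 held 1 CHR match and 1 CCAAT box, the latter on the other strand, and Tk1 held none of these letters in this window.

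Over the whole 300-base entries (250 bases before and 50 after the start), 22 of the 28 mitotic genes and 18 of the 23 replication genes had an entry, Ccna2 having none. A CHR match was present in 16 of the 22 mitotic promoters (72.7%), in 4 of the 18 replication promoters (22.2%) and in 21.7% of all 27025 genes with an entry. A CCAAT box was present in 77.3% of mitotic, 66.7% of replication and 41.1% of all promoters. The E2F core went the other way, with 3 of 22 mitotic promoters (13.6%), 11 of 18 replication promoters (61.1%) and 10.9% of all promoters. The 4 replication promoters with a CHR match were those of Mcm2, Mcm7, Cdc45 and E2f8, and of these Mcm2 alone passed the adjusted p against vehicle. Birc5, Nuf2, Nusap1 and Melk had none of the motifs in their windows, and they included the mitotic genes with the smallest and the largest estimated fall. A CCAAT box on the other strand and an E2F core can overlap in their letters, which they did in no printed promoter, and a match describes letters, not a bound factor.

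Tk1 (chr11:117815526-117826092, minus strand), the thymidine kinase that is normally made in S phase, was the replication gene that rose most. It had 204 to 249.04 (median 223) normalised counts in vehicle, 315 to 664 (median 497) in GDF15 and 134 to 322 (median 234) in pair-fed livers. Every GDF15 liver was above every vehicle liver, and the lowest GDF15 liver was within the pair-fed range. Its log2 fold change was 1.15 ± 0.19 against vehicle and 1.09 ± 0.19 (SE) against pair-fed livers, with DESeq2 adjusted p-values of 3.59e-08 and 2.43e-07. Tk1 starts head to head with Afmid (chr11:117825924-117839908, plus strand), an enzyme gene of tryptophan breakdown, and exons of both genes share 83 bases there. Whether the counting used strand is not given in the sources used here, so reads of this overlap may be split between them and the level of Tk1 is uncertain.

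Afmid, named here after its values were seen, moved in the same direction. It had 1033 to 1540 (median 1273) normalised counts in vehicle, 1365 to 2713 (median 2214) in GDF15 and 692 to 1757 (median 1361) in pair-fed livers. Its log2 fold change was 0.73 ± 0.19 against vehicle and 0.71 ± 0.19 (SE) against pair-fed livers (DESeq2 adjusted p = 0.000870 and 0.00162). GDF15 livers 3 and 2 were the highest and GDF15 liver 4 the lowest for both genes, and pair-fed liver 4 was the highest and liver 2 the lowest of their group for both. Tk1 as a percentage of Afmid was 16.2 to 20.4 in vehicle, 18.7 to 26.7 in GDF15 and 16.5 to 20.1 in pair-fed livers, so that 5 of 6 GDF15 livers exceeded all others. The part of Afmid in the Tk1 values was not tested. Birc5 lies on the other side of Afmid (chr11:117849251-117855743, plus strand) and shares no exon with it in this annotation. Birc5 had 45.8 to 67.7 (median 56.1) normalised counts in vehicle, 30.7 to 46.2 (median 38.2) in GDF15 and 34.1 to 48.5 (median 39.9) in pair-fed livers.

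**Figure D5:**
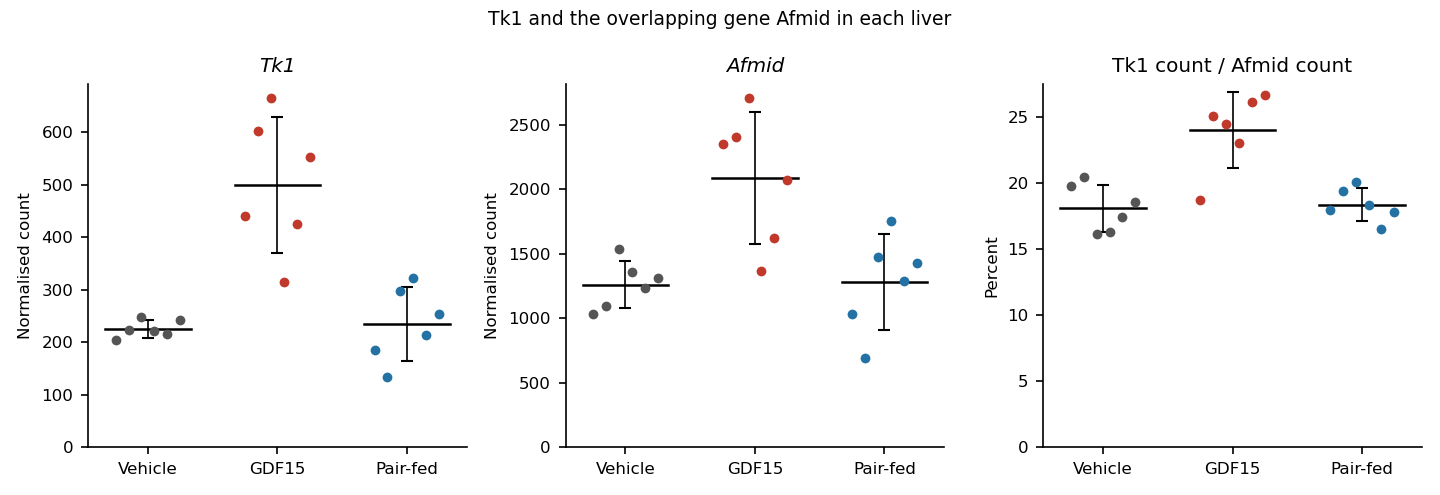
Normalised counts of Tk1 (left) and of the overlapping gene Afmid (middle) and Tk1 as a percentage of Afmid (right) in each of 18 livers; points are livers in the order of their replicate numbers, lines are group means and bars are SD over 6 livers. Both genes are high in GDF15 livers and follow the same order there at the extremes, and the percentage is 18.7 to 26.7 in GDF15 livers against 16.2 to 20.4 in vehicle livers.

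Ccna2, Kif20a, Cdc20, Nusap1, Prc1, Mcm7, Gins2, Chaf1a, Cdc45, Ccne2 and Ccnd1 likewise share exon bases with a measured gene on the opposite strand, from 53 bases for Cdc20 with Elovl1 to 4648 for Chaf1a with Ubxn6. Their levels are uncertain for the same reason as that of Tk1, but not to the same extent. Tk1 shares 83 bases with Afmid, whereas Gins2 shares 2758 with Gse1. How far the overlap affects each level was not tested.

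Other genes of the same steps were counted from lists. Of 69 further mitotic genes, 32 were called lower in GDF15 than in vehicle livers, where 4.85% of all genes were. At the adjusted p alone 48 were lower and 1, Cenpl, was higher, where 15.8% and 14.3% of all genes were. The median log2 fold change of the 69 was -0.96. The lowest adjusted p-values belonged to Knstrn, Kif22 and Cdca3, which act on the spindle, on chromosome arms and in mitotic entry, with log2 fold changes of -1.98, -2.08 and -1.26. Against pair-fed livers 13 of the 69 were called lower, where 2.43% of all genes were, and the median was -0.76. At the adjusted p alone 32 were lower and 2 higher in that comparison, where 12.2% and 11.8% of all genes were. Cenpl, a centromere protein gene, rose by 0.42 ± 0.11 (log2, SE).

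Of 62 further replication and repair genes, 3 were called lower and none higher against vehicle, where 4.85% and 0.813% of all genes were, so that the count lower is near that of all genes. At the adjusted p alone 12 were lower and 5 higher, where 15.8% and 14.3% of all genes were, and the median log2 fold change was -0.17. Dtl, which marks Cdt1 for destruction in S phase, fell by 1.35 ± 0.33, Clspn, of the replication checkpoint, by 1.63 ± 0.43, and Lig1, the ligase of lagging strands, by 0.49 ± 0.14 (log2, SE). Rfc5 of the clamp loader (0.33 ± 0.09), Pold2 of polymerase delta (0.32 ± 0.10) and the histone chaperone Nasp (0.26 ± 0.09) rose. Against pair-fed livers 7 were lower and 2 higher at the adjusted p alone, not above the 12.2% and 11.8% of all genes.

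Of 16 inhibitors of the cycle, 2 were lower and 1 higher against vehicle at the adjusted p alone, not above the 15.8% and 14.3% of all genes, and none by both thresholds (DESeq2, 6 at an unadjusted p under 0.05). Against pair-fed livers 2 were lower and 3 higher at the adjusted p alone, where 12.2% and 11.8% of all genes were. Pkmyt1, the kinase that restrains Cdk1, had medians of 56.9, 36.5 and 50.3 normalised counts in vehicle, GDF15 and pair-fed livers and fell by 0.73 ± 0.20 against vehicle (log2, SE). Rbl1 (p107), itself made in cycling cells, had medians of 71.6, 38.6 and 66.9 and fell by 0.83 ± 0.24. Rbl2 (p130), a pocket protein of resting cells and part of the repressive DREAM complex, had 550 to 774 (median 671) in vehicle, 709 to 1058 (median 868) in GDF15 and 607 to 777 (median 730) in pair-fed livers. Rbl2 rose by 0.42 ± 0.10 against vehicle and by 0.32 ± 0.09 (SE) against pair-fed livers (DESeq2 adjusted p = 0.000114 and 0.00496). Cdkn1a (p21), named after its values were seen, had 334 to 1008 (median 459) in vehicle, 89.1 to 501 (median 210) in GDF15 and 143 to 770 (median 273) in pair-fed livers, and its log2 fold change of -1.10 ± 0.49 against vehicle did not pass (DESeq2 adjusted p = 0.0678). It passed without GDF15 replicate 1 or 4 (-1.37 to -1.26) and in a fit of only the 12 livers compared.

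Of 11 further G1 cyclins, kinases and partners of E2F, 3 fell and 1 rose at the adjusted p against vehicle, where 15.8% and 14.3% of all genes did. Cdk6, a kinase driven by D-type cyclins, fell by 0.54 ± 0.11, Ccnd2 by 0.63 ± 0.18 and E2f3 by 0.29 ± 0.11, and Tfdp2, a partner of E2F factors, rose by 0.66 ± 0.14 (log2, SE). The call of E2f3 was lost without any of 6 single libraries (-0.29 to -0.24).

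Markers of stellate cells, leukocytes and cholangiocytes were mostly lower in GDF15 than in vehicle livers. The exceptions by sign were the leukocyte markers Clec4f and Nkg7, at 0.15 and 0.14 (log2), neither of which passed. At the adjusted p alone, 9 of 10 stellate cell and fibroblast markers, 8 of 12 leukocyte and macrophage markers and 6 of 6 cholangiocyte markers were lower in GDF15 than in vehicle livers, with median log2 fold changes of -0.87, -0.66 and -1.12, where 15.8% of all genes were lower. Against pair-fed livers 8 stellate, 7 leukocyte and 1 cholangiocyte markers were lower, with medians of -0.82, -0.47 and -0.50, where 12.2% of all genes were. Pair-fed against vehicle, none passed and the medians were -0.28, -0.14 and -0.62 (DESeq2, 3, 0 and 2 markers at an unadjusted p under 0.05). The summed stellate markers were 9247 to 16228 normalised counts in vehicle, 4617 to 6828 in GDF15 and 8318 to 13325 in pair-fed livers, without overlap of GDF15 with the others. The summed leukocyte markers were 4501 to 9081, 2941 to 5908 and 4452 to 7229, and the summed cholangiocyte markers 2380 to 8690, 1040 to 2108 and 2166 to 6056, in the same order. Most of the cholangiocyte sum was Spp1, with medians of 4723, 1144 and 2713 where the sum had medians of 5158, 1377 and 3020. Spp1 was also the 1 cholangiocyte marker that passed against pair-fed livers, so this sum mainly describes a single gene. Of 6 endothelial markers 1 was lower and 1 higher in GDF15 than in vehicle livers, where 15.8% and 14.3% of all genes were. The summed endothelial markers were 2702 to 3659 in vehicle, 2066 to 3720 in GDF15 and 3020 to 3898 in pair-fed livers. Of 10 hepatocyte markers 8 were higher in GDF15 than in vehicle livers and none lower, where 14.3% of all genes were higher.

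Vehicle livers 1 and 2, with the highest mitotic means, also had the 2 highest stellate and the 2 highest cholangiocyte sums of their group, whereas vehicle liver 6, the third by mitotic mean, was the fifth of 6 for both. Pair-fed livers 1 and 2 were likewise the highest 2 for the mitotic mean, the stellate sum and the cholangiocyte sum. That cholangiocyte sum was mostly Spp1. By the mean log2(normalised count + 1) of the 6 cholangiocyte markers, pair-fed liver 3 (6.84) exceeded pair-fed liver 2 (6.62). The leukocyte sum followed the mitotic ranks less closely. Vehicle liver 4 (6520) exceeded vehicle liver 2 (6491), and pair-fed liver 3 was the highest of its group (7229). GDF15 liver 6, with the highest mitotic mean of its group (3.90), had its lowest leukocyte sum (2941). The stellate and cholangiocyte sums of that liver, 5242 and 1064, were under the group medians of 5371 and 1377. None of the stellate, leukocyte and cholangiocyte markers was at 0 in any liver. In GDF15 livers the medians of Col1a1, Ptprc and Krt19, which define these cells, were 247, 120 and 36.1 normalised counts. The part of these cells in the fall of the mitotic genes was not tested.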

How the data were processed

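RNA from 18 livers, 6 per group, was extracted with TRIzol and RNeasy columns, and stranded paired-end libraries were sequenced on an Illumina NextSeq instrument. Per the submitters' processing notes the authors used Trim Galore, Salmon, DESeq2 and mm10. Versions, and whether strand was used in counting, are not given in the sources used here. The deposited values are estimated counts rounded to whole numbers for 16245 gene symbols, the lowest row total being 5. Library totals were 18059478 to 23215915 in vehicle, 16508864 to 25001486 in GDF15 and 17180057 to 35301853 in pair-fed livers, and 3 counts, the floor, came to 0.0850 to 0.182 CPM, for counting error only.

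DESeq2 1.42.0 (R 4.3.3) was run on all genes and all 18 samples with group as the only term (Wald test, Benjamini-Hochberg adjustment), after a test on simulated data. A gene was called at an adjusted p under 0.05 and an absolute log2 fold change above 1. Each mouse is 1 replicate. Intervals of 95% are the estimate and its normal interval from the SE. Alternatives were edgeR 4.0.16 (quasi-likelihood test), other normalisations and filters, a replicate block, subsets of replicates, and each library left out. Gene positions are from GENCODE M21 on GRCm38, promoters from RefSeq (GRCm38.p6, 40 of 51 genes matched). Summaries were made in Python 3.11.15 with pandas 2.3.3, numpy 2.4.6 and matplotlib 3.10.9.

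Members and lists were chosen with earlier results of these data known. Full values were given for the 4 mitotic and 4 replication genes with the lowest adjusted p against vehicle, for a list of standard markers of both phases, and for genes unlike the rest of their role. From each list of further genes those with the lowest adjusted p against vehicle in each direction were named, with every inhibitor that passed against vehicle.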

Additional observations from a re-analysis of the deposited data

Results flagged for a closer look

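A library far from the other 5 of its group by Dixon's test was seen in 9 of 159 groups of values examined, where 7.95 would be flagged by chance. Top2a in GDF15 replicate 3 had 19.4 normalised counts (nearest other liver 35.5), Ccna2 in the same liver 29.7 (20.8), and Cenpf in GDF15 replicate 6 had 38.6 (12.3). Prc1 in pair-fed replicate 1 had 63.6 normalised counts (35.2). Mcm4 in vehicle replicate 2 had 202 (154), Ccne2 in pair-fed replicate 5 had 16.6 (29.9), and E2f8 had 339 in GDF15 replicate 2 (160) and 204 in pair-fed replicate 3 (114). The mean replication level of pair-fed replicate 5 was 6.58 on the log2(normalised count + 1) scale, where the next liver had 6.94.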

How the results depend on the processing

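No call reversed under any alternative run. Of 28 mitotic genes, 27 were called lower against vehicle, and 27 on leaving out any single library. Against pair-fed livers the count was 19, from 17 to 22 on leaving out single libraries, and 6 in replicates 4 to 6 alone. Over all genes, replicates 4 to 6 gave 516 called lower against vehicle and 273 against pair-fed livers, and replicates 1 to 3 gave 617 and 420. Replication genes called lower numbered 3 against vehicle (2 to 3 without single libraries, 10 with no fold threshold, 5 in replicates 1 to 3, 0 by DESeq2 in replicates 4 to 6, where 4186 genes of all had an unadjusted p under 0.05). Against pair-fed livers they numbered 2 (12 with no fold threshold, 5 in replicates 1 to 3, 0 in replicates 4 to 6, 1 with the 3 largest pair-fed libraries, and 1 to 3 without single libraries, namely 1 without GDF15 replicate 1 or 3 or pair-fed replicate 2, 4 or 6). Pair-fed against vehicle the counts were 0 for both lists on leaving out any single library (DESeq2). Over 70 genes in 3 comparisons, 222 of 4679 values under an alternative lost a call at the adjusted p and 29 gained one, with 63 of the losses in replicates 4 to 6. Fewer livers were compared there, and the cause was not tested. With all 6 GDF15 livers but only the 3 largest pair-fed libraries (replicates 4 to 6), 28 calls against pair-fed livers were lost. The mitotic genes among them were Aurka, Bub1, Bub1b, Cdk1, Cenpe, Foxm1, Kif11, Ndc80, Pbk, Prc1, Top2a, Ttk and Ube2c. With the 3 smallest (replicates 1 to 3) 6 were lost, Aurka and Ube2c among them, and 1 gained. Over all genes these fits gave 1003 and 1922 lower at the adjusted p alone. Cenpe lost its call against pair-fed livers without any of 9 libraries (log2 fold changes from -0.88 to -0.63), and Cenpf gained one without GDF15 replicate 6 (-1.23).

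Mice of different groups shared replicate numbers. Same-numbered livers had deviations that correlated above 0.1 in 2 of 6 pairs for GDF15 and vehicle, 3 of 6 for GDF15 and pair-fed and 4 of 6 for pair-fed and vehicle, and since no comparison had every pair above 0.1 the numbers were not taken to pair the mice. For pair-fed and vehicle all 6 were positive, from 0.0303 to 0.617 with a mean of 0.211, against -0.0424 between other numbers, a hint from the data and not from the design. With a replicate block, mitotic genes called lower numbered 27, 18 and 0 and replication genes 2, 2 and 0 (GDF15 against vehicle, GDF15 against pair-fed, pair-fed against vehicle). Over all genes that fit called 755, 408 and 2 lower by both thresholds, in the same order. Among the named genes the block lost the calls of Cdc6 and Gins1 against vehicle and of Cdt1 and Rfc5 against pair-fed livers, gained those of Ccnd1 against pair-fed livers and Cdkn1a against vehicle, and over all genes called 2 lower and 1 higher at the adjusted p in pair-fed against vehicle livers. Sparse genes are limited by depth: Melk and Bub1 had a median of 2 counts in GDF15 livers.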
